A study of Mus musculus with 3 samples.

Results

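The constitutive proteasome subunit genes were followed in melan-a NRAS61K cells after 6, 14 and 28 days with doxycycline at 1 µg/ml. Melan-a is an immortal pigment cell line of the mouse, here carrying the NRAS61K oncogene. A probe set of the Affymetrix array was a member when the platform annotation gave it a single symbol made of Psma, Psmb, Psmc or Psmd and a number, without the immunoproteasome genes Psmb8, Psmb9 and Psmb10. This gave 74 probe sets of 36 genes, among 18194 genes that had a probe set of their own. Doxycycline was given to the cells of all 3 arrays, 1 array for each time, so no group without it enters the comparisons. The design text speaks of 4 samples in total, and the arrays used here are 3 of them. The labels name neither the promoter that drives the oncogene nor what doxycycline switches, and the series title speaks of tumorigenic cells arising from cells made senescent by the oncogene.

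The 26S proteasome degrades proteins tagged with ubiquitin. Its 20S core is a barrel of stacked rings, with alpha subunits outside and beta subunits inside, and only some beta subunits cut peptide bonds. The 19S cap recognizes ubiquitin, removes it with a lid subunit, and unfolds the substrate with a ring of ATPases. In mammals the subunit genes are known to be induced together by the transcription factor NRF1 (gene Nfe2l1) when proteasome activity is short, and interferon replaces the catalytic beta subunits by immunoproteasome forms.

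Values are on a log2 scale whose base was inferred and whose zero point is unknown, so levels of different probe sets were not set against each other. Each gene is represented by its brightest probe set, judged by the mean of the 3 arrays. Differences are given for genes that exceeded the background on at least 1 array of the pair compared. As background served the value that 90% of 89 probe sets stayed under, taken from 60 genes silent in pigment cells (22.53, 22.57 and 22.44 in order of time). The sorted values of the 3 arrays were identical, so each difference is relative to the other genes. With 1 array per time point there was no spread between cultures, no test could be run, and the array and the time point cannot be told apart. Among 15 melanocyte markers 10, 11 and 11 lay above the background in order of time, including Sox10 and Pmel, while Tyr lay below it on all arrays. The leukocyte marker Ptprc and the fibroblast markers Thy1 and Lum also lay below it on all arrays, although the macrophage genes Cd68 and Lyz2 lay above it. The fibroblast markers Ogn, Col3a1, Pdgfra and Col1a1 lay above the background on all arrays as well. Of the leukocyte markers 4, 4 and 5 of 9 were above the background, and of the fibroblast markers 6, 5 and 7 of 10.

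Of the 36 genes, 34 lay above the background on every array. The exceptions were Psma8, which replaces an alpha subunit in the testis, with values of 19.32, 19.97 and 19.06, and Psmb11, the catalytic subunit of the thymus, with 20.87, 20.14 and 18.32. Both lay below the background on all 3 arrays, so no difference is given for them. The 36 genes lay on 16 chromosomes, with at most 6 on one of them, chromosome 11.

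All 34 expressed genes had their highest value at day 6. Their median level was 28.17 on the day 6 array, 27.77 on that of day 14 and 27.75 on that of day 28. The lowest value was that of day 14 for 20 genes and that of day 28 for 13, and Psmc2 had the same value on both arrays. Of all genes described, 53.5% were lower at day 14 than at day 6, and 49.0% were lower at day 28. The share of all genes with each of these time patterns was not counted. The plot of levels by subcomplex shows lines that all go down between days 6 and 14, followed by smaller differences in either direction.

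**Figure D1:**
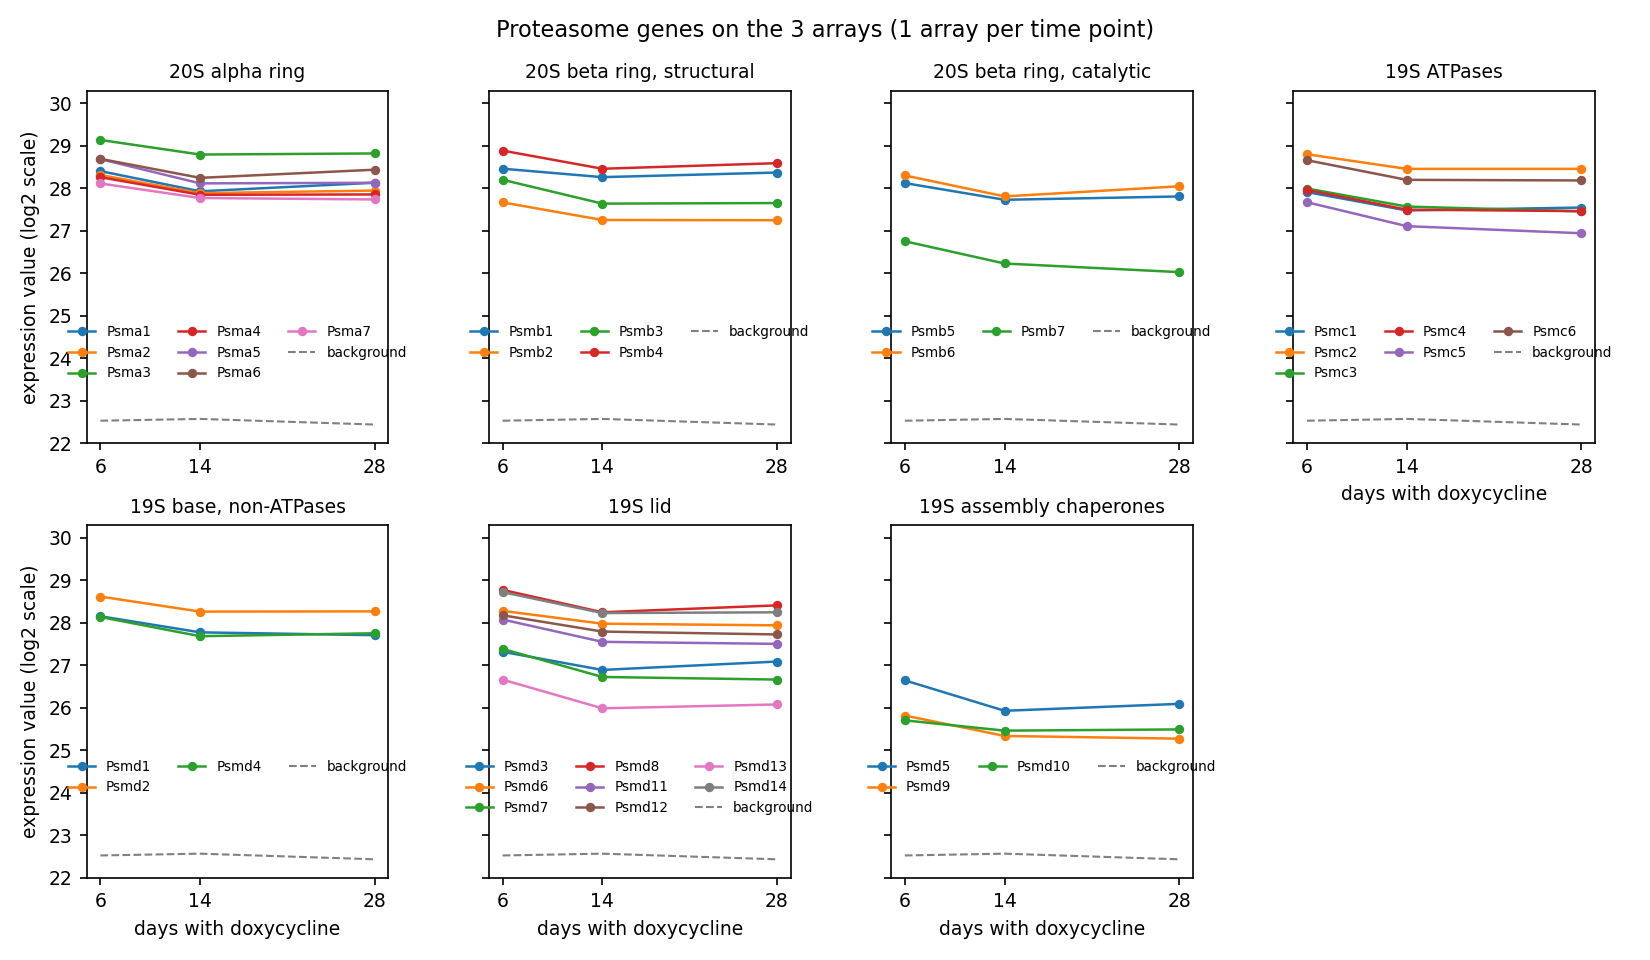
Expression value on a log2 scale (vertical axis) against days with doxycycline (horizontal axis) for the 34 expressed proteasome genes, 1 line per gene and 1 panel per subcomplex, with 1 array per time point. Every line is highest at day 6, and all points lie above the dashed background of 22.44 to 22.57.

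Day 14 against day 6 asks how the genes stood after the first step of the time course. All 34 genes were lower at day 14, with a median log2 difference of -0.44, which is 1.36-fold, and a range of -0.72 to -0.20. Below 0 lay 53.5% of the 12068 genes described in this comparison, whose median was -0.05. No proteasome gene was 2-fold lower or higher, where 3.95% of all genes were 2-fold lower and 5.36% higher. A smaller size was added after the data were seen, at least 20% lower or 25% higher on the linear scale. By it 31 of 34 genes were lower and 0 higher, against 29.0% and 24.4% of all genes. At 1.5-fold 3 genes were lower (Psmd5, Psmd13 and Psmd7), where 14.5% of all genes were. The members had small differences of similar size. Their SD over genes was 0.11, against 0.58 over the 5929 genes whose mean level lay in the same range (25.48 to 28.92), of which 50.9% lay below 0 and whose median was -0.01. Fewer cells of a type and less RNA per cell cannot be told apart in such bulk RNA.

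**Figure D2:**
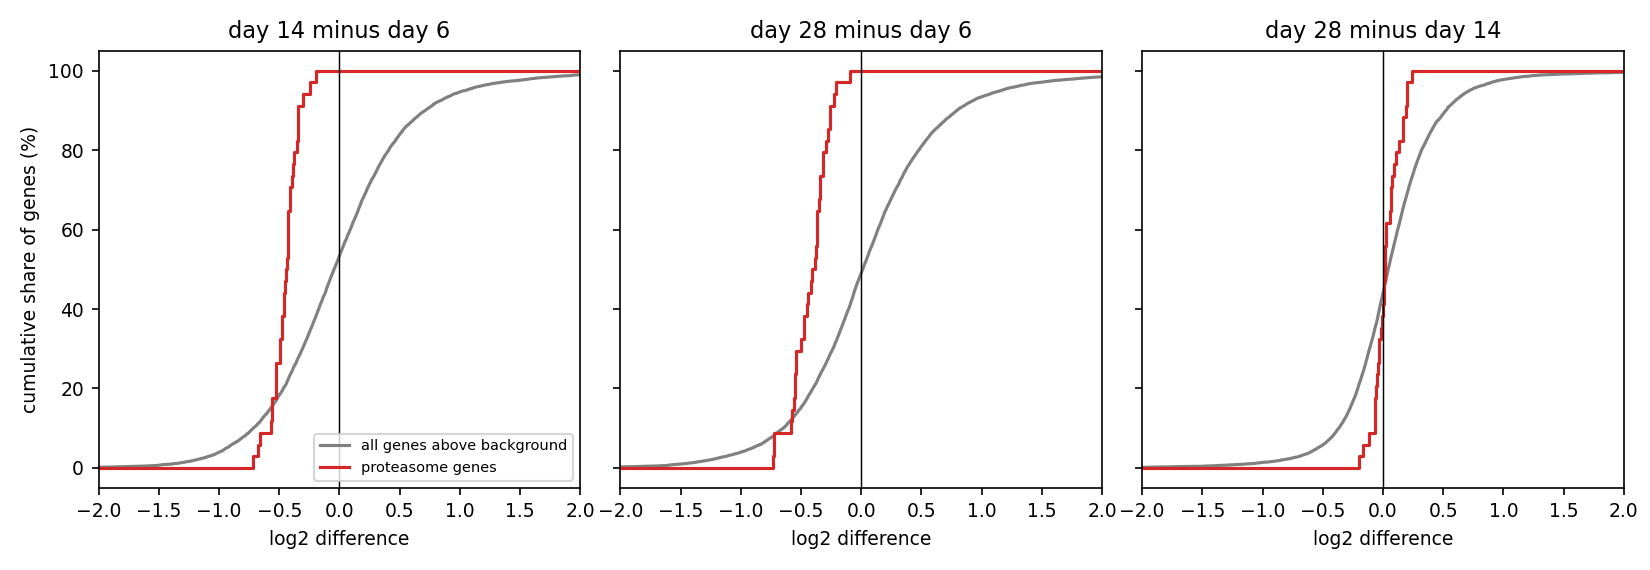
Cumulative share of genes in percent (vertical axis) against the log2 difference between arrays (horizontal axis), for all genes above the background (grey) and the 34 proteasome genes (red), in 1 panel per comparison. The red line reaches 100% left of 0 in both comparisons with day 6, while for day 28 against day 14 it crosses 0 with 13 genes below it.

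For probe sets of the same gene, the SD of their differences between arrays was taken within each gene. Error common to all probe sets of an array does not enter this SD, and the spread between cultures was not measured. Among the 18 proteasome genes with several probe sets above the background, the SD was 0.26 for day 14 against day 6. It was 0.21 for day 28 against day 6, and over all genes 0.31 and 0.32. These values pool dim probe sets with bright ones. Over probe sets of all genes with a mean level of at least 25.48, the lowest mean level of a member, they were 0.22 and 0.25. Of 29 further probe sets above the background on all arrays, 23 were lower at day 14 and 6 higher. Of all genes, each on its brightest probe set, 53.5% were lower, and the share of all further probe sets was not counted. The 6 belonged to Psma3, Psma6, Psmc6, Psmd7, Psmd9 and Psmd13, and 5 of them had a mean level below 24, against 3 of the 23 that were lower. The probe set of Psmc6 was the exception, with a mean level of 27.01. At day 28 against day 6, 26 of the 29 were lower and 3 higher, where 49.0% of all genes were lower. A mean level below 24 was found for 6 of the 26 and 2 of the 3. The remaining higher one belonged to Psmb1, with a mean level of 26.30. The part of the level in these directions was not tested.

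In the alpha ring, the gate through which substrates enter, all 7 genes were lower at day 14, by -0.57 to -0.34. Of all genes 53.5% were lower. Psma5 had values of 28.68 at day 6, 28.11 at day 14 and 28.13 at day 28. It was 1.49-fold lower at day 14 and 1.47-fold lower at day 28, and its other 2 probe sets above the background gave -0.63 and -0.41 for day 14. Psma1 went from 28.40 to 27.93 and then to 28.13, so that its day 28 value lay between the others. Psma7, with 28.11, 27.77 and 27.74, and Psma3, with 29.14, 28.79 and 28.82, differed least of the ring at day 14, by -0.34 each.

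Among the structural beta subunits, which build the inner rings without cutting, Psmb3 had values of 28.20, 27.64 and 27.65. Psmb1 was the member closest to its day 6 value on both later arrays, with 28.46, 28.26 and 28.37. Its product sits in the beta ring without an active site. Its differences were -0.20 at day 14 and -0.09 at day 28, and another of its probe sets gave 0.15 at day 28. Psmb2 and Psmb4 lay between these, at -0.41 and -0.43 for day 14.

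The catalytic subunits are the parts of the proteasome that cut. Psmb5, which carries the chymotrypsin-like activity, had values of 28.12, 27.73 and 27.81. Psmb6, the caspase-like subunit, had 28.30, 27.81 and 28.04, and Psmb7, the trypsin-like subunit, 26.75, 26.23 and 26.02. At day 14 the 3 were close together, at -0.39, -0.49 and -0.52. At day 28 Psmb5 and Psmb6 were at -0.32 and -0.26, and Psmb7 stood apart from them at -0.73, or 1.65-fold lower. Psmb6 had the highest and Psmb7 the lowest day 28 against day 14 difference of all 34 genes (0.24 and -0.20), and each has 1 probe set, so neither could be checked against another.

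The 6 ATPase genes of the cap ring were all lower at day 14, by -0.56 to -0.34, where 53.5% of all genes were lower. All 6 were at least 20% lower at day 28, where 24.6% of all genes were. That size was added after the data were seen. Psmc5 had values of 27.67, 27.11 and 26.94 and was 1.66-fold lower at day 28, the most of any member. Psmc3 and Psmc4 had differences of -0.54 and -0.50 at day 28, and Psmc2, whose values were 28.80, 28.45 and 28.45, one of -0.34. The second probe set of Psmc4 gave -0.62 for day 28 and that of Psmc1 -0.52, so both genes were lower on each of their probe sets above the background. Psmc6 differed by -0.46 at day 14 and -0.48 at day 28. Its other probe sets above the background gave -0.20 and 0.02 for day 14 and -0.20 and -0.12 for day 28. The base subunits outside the ATPase ring were alike. Psmd1 and Psmd2, the scaffold subunits that bind ubiquitin receptors, differed by -0.38 and -0.35 at day 14, and the ubiquitin receptor gene Psmd4 by -0.45.

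The lid holds the subunit that removes ubiquitin. That gene, Psmd14, had values of 28.73, 28.23 and 28.25, a difference of -0.49 at day 14 and -0.48 at day 28. Its partner Psmd7 had 27.39, 26.73 and 26.67 and was 1.58-fold lower at day 14 and 1.65-fold at day 28. A dimmer probe set of Psmd7 gave 0.02 and -0.21. Psmd13 had 26.67, 25.99 and 26.08, with 1.60-fold at day 14, and its probe sets did not all move alike, one giving -0.74 and a dim one 0.24. Psmd11, whose amount is known to raise proteasome activity in stem cells, had 28.08, 27.56 and 27.51, and its other 3 probe sets above the background gave -0.81 to -0.22 for day 14. Psmd3 stood nearer to its day 6 value at day 28, with 27.32, 26.89 and 27.09, while Psmd8, Psmd12 and Psmd6 differed by -0.36, -0.45 and -0.34 at day 28. All 8 lid genes were lower on both later arrays, where 53.5% of all genes were lower at day 14 and 49.0% at day 28.

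The rule also took the chaperones that help assemble the cap and are not part of the finished particle. Psmd5 had values of 26.65, 25.93 and 26.10 and the lowest day 14 against day 6 difference of all members, 1.64-fold lower. Psmd9 had 25.82, 25.34 and 25.28, although a second, dim probe set gave 0.23 in both comparisons with day 6. Psmd10, also known as the oncoprotein gankyrin, had 25.71, 25.47 and 25.49 and was among the members least different from day 6.

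**Figure D3:**
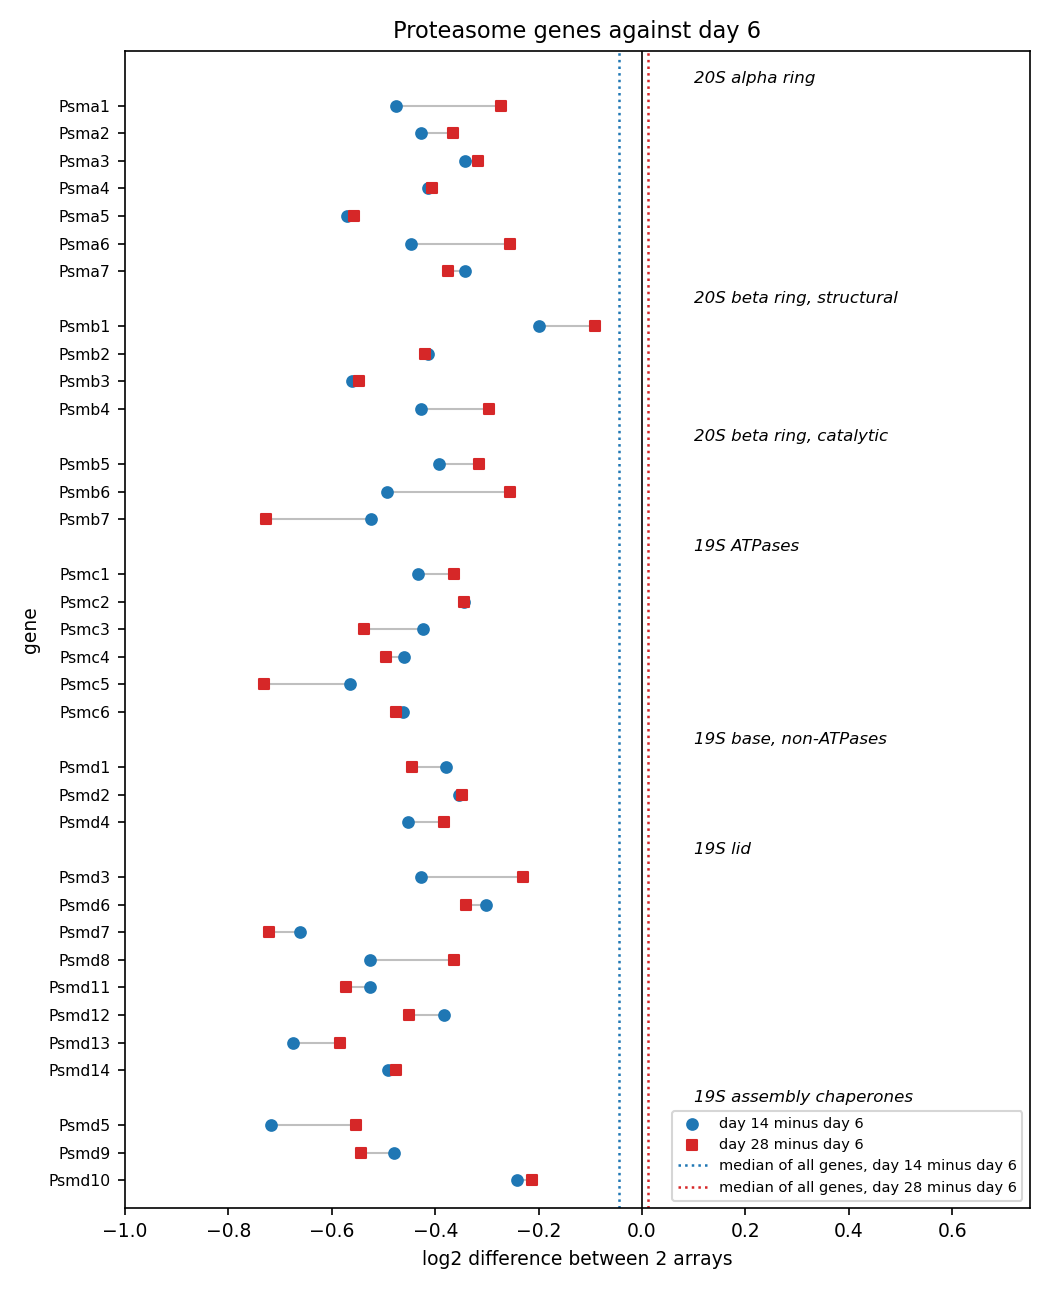
Log2 difference between 2 arrays (horizontal axis) for each expressed proteasome gene (vertical axis), for day 14 minus day 6 (blue circles) and day 28 minus day 6 (red squares), with dotted lines at the medians of all genes (-0.05 and 0.01). All points lie left of 0, from -0.73 for Psmc5 to -0.09 for Psmb1, both at day 28.

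Day 28 against day 6 asks whether the difference was still there at the last time point. All 34 genes were again lower, with a median of -0.39, or 1.31-fold, and a range of -0.73 to -0.09. Of the 12304 genes described, 49.0% lay below 0 and the median was 0.01. No proteasome gene was 2-fold apart, against 3.95% of all genes lower and 6.61% higher. Of the 34 genes 25 were at least 20% lower, against 24.6% of all genes, and 0 at least 25% higher, against 27.7%. At 1.5-fold 3 were lower (Psmc5, Psmb7 and Psmd7), against 12.0%. Genes of like level gave 48.6% below 0. Both comparisons use the same day 6 array, and any error in it would affect both. The median of the ATPases was -0.49 and that of the lid genes -0.46, beside -0.37 for the alpha ring and -0.36 for the structural beta genes. Differences between these subcomplexes were not tested.

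Day 28 against day 14 asks whether the genes came back. The median difference was 0.01, with 13 of 34 below 0, where 44.0% of 12200 genes lay below 0 and the median of all genes was 0.04. This pair shares the day 14 array with the first comparison and the day 28 array with the second. No member was 2-fold apart, against 1.40% of all genes lower and 2.26% higher. None was 1.5-fold lower, against 4.25%. None was at least 20% lower or 25% higher, against 12.2% and 19.9%. Of genes of like level 47.7% lay below 0. The range was -0.20 to 0.24, and 23 of the 34 genes lay within 0.1 of their day 14 value. The share of all genes within 0.1 was not counted. The SD over genes was 0.10 for the members and 0.34 for the genes of like level. The differences furthest above 0 were those of Psmb6, Psma1, Psmd3, Psma6 and Psmd5, at 0.24 to 0.16, and all 5 were still below their day 6 value. The lowest were Psmb7 at -0.20, Psmc5 at -0.17 and Psmc3 at -0.11. Of the alpha ring 1 of 7 genes was below 0 in this step and of the ATPases 4 of 6.

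Array measures that moved with the first step stand beside these results. The Actb quality probe sets had a 3' minus 5' difference of 0.58, 0.76 and 0.75 in order of time. Those of Gapdh had -0.24, -0.10 and -0.09. The melanocyte markers had a median level of 23.28, 25.37 and 24.06 on these arrays and a summed log2 level of 354.2, 378.3 and 368.6. For the fibroblast markers the summed level was 223.7, 229.2 and 229.1, and for the leukocyte markers 204.6, 205.5 and 209.5. Median levels were 22.94, 22.54 and 22.95 for the fibroblast markers and 22.37, 22.43 and 22.78 for the leukocyte markers. The fibroblast marker Ogn had 24.29, 27.47 and 25.59, and Col1a1 had 23.97, 23.39 and 23.60. The macrophage gene Lyz2 had 24.57, 27.17 and 27.31, and Cd68 25.09, 23.98 and 25.99. The part of the marker genes and of RNA quality in the result was not tested. The poly-A controls, RNAs meant to be added before labelling, had means of 23.47, 23.69 and 23.91. Their part in the result was not tested either. Hybridization controls had means of 27.45, 27.53 and 27.53. Shifting the arrays to make the hybridization controls equal moves every value of an array by the same amount. Here it could only lower the later arrays against day 6, so it is no check on the direction. After it all 34 genes were lower in both comparisons with day 6, where 59.5% and 55.1% of all genes were. Their medians were -0.52 and -0.47. The median of all genes moved with that shift to -0.13 and -0.06, so the distance between the proteasome genes and all genes was the same, -0.39 at day 14 and -0.41 at day 28.

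Other genes of the same machine were read from lists. Assembly factors of the 20S core had a median of -0.67 at day 14, and 4 of 5 were at least 20% lower, where 29.0% of all genes were. Psmg3 had values of 25.69, 24.95 and 24.95 and Psmg4 26.01, 25.26 and 25.47, each 1.68-fold lower at day 14, although a second probe set of Psmg3 gave 0.00. Pomp, which completes the core particle, had 27.82, 27.36 and 27.22. Psmg1 had 27.17, 26.51 and 26.52. The product of Psmg2 works as a dimer with that of Psmg1, and Psmg2 had 27.53, 27.55 and 27.73, so on this probe set it was not lower on either later array, and its other 2 gave -0.15 and -0.03 for day 14.

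Activators and bound enzymes were less uniform. Psme3, the activator subunit of the nucleus, had values of 25.88, 24.36 and 24.62 and was 2.85-fold lower at day 14 and 2.38-fold at day 28. Uchl5, a deubiquitinase bound to the cap, had 27.78, 26.48 and 26.75, and was 2.47-fold and 2.05-fold lower, with a second probe set at -1.01 and -0.89. Both genes were more than 2-fold lower in both comparisons. The other bound deubiquitinase gene, Usp14, differed by -0.50 and -0.60, although its further probe sets gave -0.57 to 0.27 for day 14. Psme1 differed by -0.18 and 0.17, Psme4 by 0.22 and -0.02, and the inhibitor gene Psmf1 by 0.30 and 0.53. Further probe sets of Psmf1 ranged from -0.39 to 0.43 at day 14 and from -0.07 to 0.55 at day 28, and those of Psme4 from 0.07 to 0.48 and from -0.29 to 0.34. In the list of deubiquitinases, ligases and shuttles 7 of 9 genes were below 0 at day 14, against 53.5% of all genes, with a median of -0.28. The list of p97, the ATPase that extracts proteins for the proteasome, had a median of -0.02 and 6 of 8 below 0, against the same share of all genes. Of the 6 genes of ubiquitin and its E1 enzymes, only Uba6 had a probe set naming it alone, with -0.60 at day 14 and -0.13 at day 28. Its other 3 probe sets gave -0.73 to -0.31 at day 14 and -0.48 to 0.64 at day 28.

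The transcription factor gene Nfe2l1 had values of 27.35, 27.26 and 27.53, so it was -0.09 from day 6 at day 14 and 0.17 at day 28. Ngly1, whose enzyme is needed to activate NRF1, differed by -0.11 and 0.41. The related gene Nfe2l2 differed by 0.03 and 0.41, although another of its probe sets gave 1.33 at day 14 and -0.03 at day 28. Nfe2l3 lay above the background only at day 28, at 22.97. Of the small Maf partners, Mafg, Mafk and Maff differed by -0.12, 0.03 and -0.58 at day 14. At day 28 these genes differed by -0.40, -0.38 and -0.42, and a second probe set of Mafg gave -0.07 in both comparisons. In this list 4 of 6 genes were below 0 at day 14 and 3 of 7 at day 28, where 53.5% and 49.0% of all genes were.

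**Figure D4:**
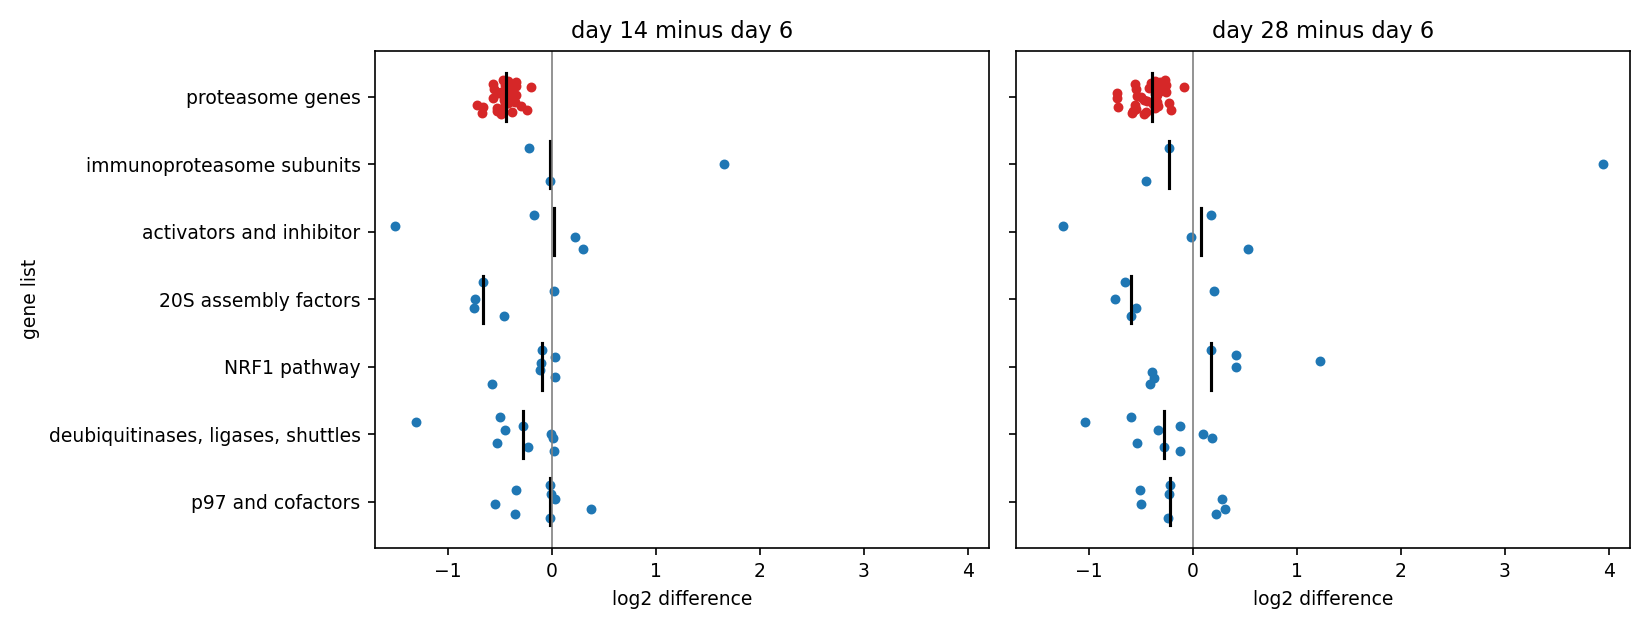
Log2 difference between 2 arrays (horizontal axis) for the genes of 7 lists (vertical axis), the proteasome genes in red and related lists in blue, with a bar at each median. The proteasome genes sit between -0.73 and -0.09 in both panels, while Psmb9, far right, and Psme3, far left, mark the ends of the immunoproteasome and activator lists.

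The immunoproteasome subunits take the places of the catalytic ones. Psmb9, which replaces Psmb6, had values of 22.59, 24.25 and 26.53, the first of them just above the background of 22.53. It was 3.15-fold higher at day 14 and 15.4-fold higher at day 28 while Psmb6 was 1.41-fold and 1.19-fold lower. Psmb10, which replaces Psmb7, had 26.17, 26.15 and 25.72, differences of -0.02 and -0.45 beside -0.52 and -0.73 for Psmb7. Psmb8, which replaces Psmb5, had 23.80, 23.58 and 23.57 on its main probe set, and its other one lay below the background on all arrays. Averaging both Psmb8 probe sets turned its day 28 against day 6 difference from -0.23 to 5.40. On the brightest probe sets, Psmb9 was 2-fold higher than at day 6, and Psmb8 and Psmb10 were not.

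**Figure D5:**
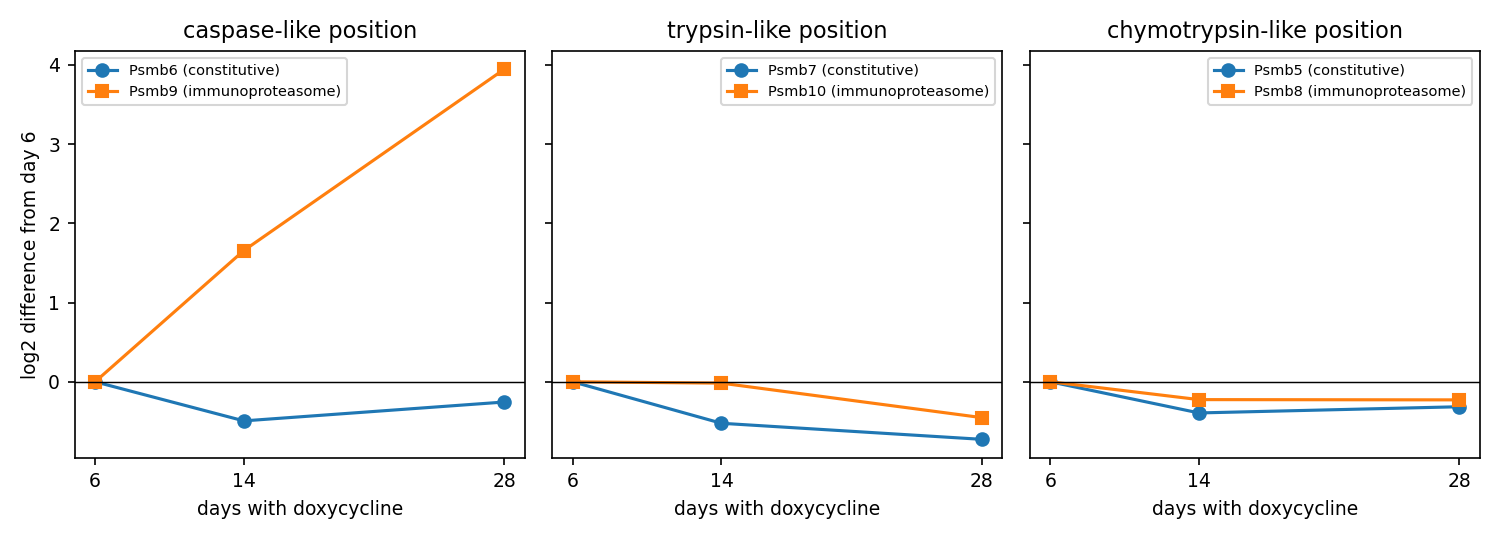
Log2 difference from day 6 (vertical axis) against days with doxycycline (horizontal axis) for each constitutive catalytic gene (blue) and the immunoproteasome gene that replaces it (orange), 1 array per time point. Psmb9 ends at 3.94 and Psmb6 at -0.26, whereas the other pairs stay between -0.73 and 0.

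Other large complexes give a scale for the size of the difference. Of 42 cytosolic ribosomal protein genes described, 38 were below 0 at day 14 with a median of -0.26, and 35 at day 28 with a median of -0.15. Of 33 complex I genes of the respiratory chain, 24 and 21 were below 0, with medians of -0.18 and -0.13. Over all genes the shares below 0 were 53.5% and 49.0%. The proteasome medians of -0.44 and -0.39 were lower than either, and none of these differences between lists was tested. The day 28 against day 14 medians were 0.09 for ribosomal protein genes, 0.06 for complex I and 0.01 for the proteasome genes.

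What the promoters of the genes share was read from RefSeq promoters of build GRCm38.p6, from 250 bases before to 50 after each gene start. Promoters were matched for 29 of the 36 genes, 31 promoters in all. They had a median of 20 CpG dinucleotides, which is also the median over promoters of genes above the background, and 7 over all promoters. Motifs were searched as letters on both strands, and matches of different motifs did not overlap. The core of the antioxidant response element, the site class that NRF1 binds, was searched as TGACNNNGC and found for 5 of 29 genes, or 17.2%, beside 17.0% of genes above the background and 14.0% of all genes. The ETS family letters CCGGAAG were found for 10 genes, or 34.5%, beside 19.4% and 9.93%. CCAAT, which NF-Y binds, was found for 12 genes, or 41.4%, beside 42.8% and 41.1%. The palindrome of nuclear respiratory factor 1 was found for 4 genes, or 13.8%, beside 6.10% and 2.77%. A match is a description of letters, and a promoter without one says nothing about the factor.

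The windows with the antioxidant response element core are shown because NRF1 is the known regulator of these genes. Each is 60 bases from the region before the gene start, read 5′ to 3′ on the gene's strand, with the match in capitals. They come from chr14:54618009-54618068 (minus strand) for Psmb5, chr11:70525297-70525356 for Psmb6, chr14:45329574-45329633 for Psmc6, chr11:107479278-107479337 for Psmd12 and chr5:123228130-123228189 for Psmd9, the last 4 on the plus strand.
Psmb5: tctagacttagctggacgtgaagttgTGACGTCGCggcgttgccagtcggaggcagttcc
Psmb6: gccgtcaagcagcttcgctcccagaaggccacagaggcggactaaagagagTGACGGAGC
Psmc6: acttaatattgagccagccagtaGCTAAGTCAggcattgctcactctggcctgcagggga
Psmd12: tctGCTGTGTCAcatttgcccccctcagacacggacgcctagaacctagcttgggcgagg
Psmd9: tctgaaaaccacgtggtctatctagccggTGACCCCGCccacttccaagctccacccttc

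In Psmb5, Psmb6 and Psmd9 the match lay 47, 9 and 31 bases before the gene start, and in Psmc6 and Psmd12 it lay 227 and 247 bases before it. The median day 14 against day 6 difference was -0.46 for the 5 genes with this match and -0.45 for the 23 expressed genes without it. For day 28 against day 6 these medians were -0.45 and -0.38.

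The ETS letters lay within 50 bases of the gene start in several cap genes, of which 4 are shown as examples from the ATPase ring, the base and the lid. They come from chr12:100110142-100110201 for Psmc1, chr16:20651592-20651651 for Psmd2, chr11:107479468-107479527 for Psmd12, all on the plus strand, and chr14:14120959-14121018 on the minus strand for Psmd6.
Psmc1: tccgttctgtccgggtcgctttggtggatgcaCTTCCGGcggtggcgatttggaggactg
Psmd2: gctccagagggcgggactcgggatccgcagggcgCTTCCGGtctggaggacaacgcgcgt
Psmd12: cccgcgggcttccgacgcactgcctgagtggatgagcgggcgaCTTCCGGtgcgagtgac
Psmd6: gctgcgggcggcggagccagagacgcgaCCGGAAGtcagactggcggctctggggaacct

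The match began 28, 26, 17 and 45 bases before the gene start in these promoters. The day 14 against day 6 medians were -0.44 for the 10 genes with the ETS letters and -0.47 for the 18 without, and those of day 28 were -0.37 and -0.39.

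The motif of nuclear respiratory factor 1 is shown because 3 of the 4 genes with a match belong to the alpha ring. Psma2 matched on both strands at overlapping positions, and the first of these is in capitals. The windows come from chr13:14613090-14613149 for Psma2, chr12:70974520-70974579 for Psma3 and chr9:54950773-54950832 for Psma4, all on the plus strand, and chr7:28050227-28050286 on the minus strand for Psmc4.
Psma2: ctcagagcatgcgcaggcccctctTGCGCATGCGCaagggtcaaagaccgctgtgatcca
Psma3: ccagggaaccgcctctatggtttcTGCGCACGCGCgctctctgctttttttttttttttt
Psma4: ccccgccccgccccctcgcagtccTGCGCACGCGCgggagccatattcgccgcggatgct
Psmc4: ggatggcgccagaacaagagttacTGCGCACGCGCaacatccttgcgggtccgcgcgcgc

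The match shown began 128, 79, 62 and 170 bases before the gene start in order of listing. These 4 genes had a median day 14 against day 6 difference of -0.42, and the 24 expressed genes without this motif had -0.46. At day 28 the medians were -0.39 and -0.38.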

How the data were processed

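The labels' protocols give biotin-labelled cRNA from 100 ng of total RNA. The deposited table holds log2 values for 45101 probe sets on each of 3 arrays. Log base (2 was inferred from the range of values), summarization and software are not stated in the labels used. Sorted values were identical between columns, as quantile normalization by the authors would leave them. The platform annotation gave 1 gene to 34958 probe sets, several to 932 and none to 9211, and outdated symbols were replaced through gene identifiers (GRCm38.p6). The members and the gene lists were chosen with earlier results of these data known. Every member could be named, and other genes only from the related proteasome lists and the cell type markers. Differences were counted past 2-fold, with 1.5-fold as an alternative, and no test was run, since the number of arrays limits the precision. The 20% size, the genes of like level, and the ribosomal protein and complex I lists were added after the data were seen. Further alternatives rescaled the arrays, took other probe sets, or treated background and dim values differently. The steps were tested on simulated data in Python (3.11.15), using pandas (2.3.3), numpy (2.4.6) and matplotlib (3.10.9).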

Additional observations from a re-analysis of the deposited data

How the results depend on the processing

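Over the scaling, probe set, background and dim value alternatives, the median of the proteasome genes ranged from -0.47 to -0.36 for day 28 against day 6, from -0.52 to -0.40 for day 14 against day 6 and from 0.01 to 0.02 for day 28 against day 14. The count of genes 2-fold lower changed from 0 to 1 for day 28 against day 6, and likewise for day 28 against day 14, with no filter on the background, which lets in Psmb11. In the main setting 3 genes were 1.5-fold lower in each comparison with day 6, where 12.0% of all genes were for day 28 and 14.5% for day 14. With no filter Psmb11 also passes that size, at -2.55 and -0.73. At the size of 20%, added after the data were seen, the main setting gave 25 for day 28 and 31 for day 14. The shares of all genes were 24.6% and 29.0%. At day 14, Psmd2 was at 0.05 when a probe set below the background was averaged in. Psma3 and Psmd13 were at 0.04 and 0.24 when probe sets marked _s_at, _x_at or _a_at were left out. That left 27 of 29 genes below 0, where 52.9% of all genes were. With no filter on the background 35 of 36 were below 0, against 53.6% of all genes. At day 28 the choice of probe sets put Psmd13 at 0.24, with 28 of 29 below 0, against 49.0% of all genes. Averaging put Psmb8 at 5.40 at day 28. No paired analysis was possible because each time point had 1 array, and no array could be left out.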
